A study of Mus musculus with 6 samples.

Results

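Solute carriers are membrane proteins that move amino acids, sugars, nucleotides, metals, vitamins and inorganic ions across the plasma membrane or the membranes of mitochondria, lysosomes and the Golgi apparatus. Some exchange one solute for another, some couple uptake to the sodium or proton gradient, and others let a solute run down its own gradient. In the adrenal gland they supply the steroid-making cells of the cortex and the catecholamine-making chromaffin cells of the medulla with substrates, and the mitochondrial carriers serve organelles in which steps of steroid synthesis take place.

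All genes whose symbol starts with Slc followed by a digit were taken, except Slc18a1, and each was placed in its family by the number after Slc. This gave 225 genes of 48 families, of 11837 named genes on the array, read by 393 cDNA clones of 35970. A clone is 1 printed cDNA, and several clones can stand for 1 gene. Clones are numbered within a gene by decreasing mean signal. A further 15 clones annotated with a carrier and another gene were not used. The symbol is not proof of transport: Slc4a1ap, for instance, meets the rule but encodes kanadaptin, an adaptor-like protein and no carrier. Members such as Slc9a3r1 and Slc9a3r2 were likewise counted by family number alone, whatever their protein does.

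The study asked which adrenal genes depend on PACAP, pituitary adenylate cyclase-activating polypeptide, the neuropeptide of the nerves that drive catecholamine release from chromaffin cells. Total RNA of adrenal glands of PACAP -/- mice was labelled with Cy3 (green) and that of PACAP +/+ mice with Cy5 (red), both of the 129XC57BL6 F2 background, and 1 RNA of each genotype was hybridised together on each of 6 spotted cDNA arrays. Ages, sexes and further treatment are not given in the labels, nor whether the 6 numbered repeats were separate animals, so p-values cover no more than how far these 6 arrays differ, and that may be technical. No array had the dyes exchanged, so a dye effect of a clone and a genotype effect cannot be told apart. The 1 clone of Adcyap1, the gene of PACAP, passed the quality filter on 2 of 6 arrays and gives no check of the labels. Throughout, a ratio is the log2 of the knockout signal over the wild-type signal, 0 means equal signal after normalization, and n = 6 arrays unless another number is given.

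Signal differed between the dyes and arrays. Throughout, signals are those left after removal of the local background, also where they are set against the local background level. The median green (knockout) signal was 5.15 to 6.79 times the local background level. The median red (wild-type) signal was 4.57, 1.32, 2.00, 1.11, 2.02 and 1.59 times that level on arrays 1 to 6, lowest on arrays 2 and 4. Ratios also differed between print blocks, each the work of 1 printing pin: with an intensity-dependent curve fitted over the whole array (global loess), 46.9% of the variance of the mean ratio lay between the 48 print blocks. The ratios below were therefore fitted within each print block (print-tip loess), and for the clones and groups described, values with global loess are given where they change a call. Of the lists of cell type markers, 4 of 11 tested adrenal cortex clones and 5 of 9 adrenal medulla clones passed as higher in PACAP -/- glands, with median ratios of 0.62 and 0.65. No clone passed among the 4 of kidney, 1 of adipocytes, 2 of erythroid cells, 5 of endothelium and 2 of macrophages. With global loess 6 cortex, 7 medulla and 1 macrophage clones were higher. Both adrenal lists were highest on arrays 2 and 4, where the cortex median was 1.41 and 1.30 and the medulla median 0.79 and 0.98, with the medulla at 0.78 on array 6. Their part in the results below was not tested. In whole glands, a change in the number of cells of a type and a change in RNA per cell cannot be told apart.

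A clone was tested where its ratio had a quality score above 0.3 on at least 4 arrays, which left 309 of the 393 clones and 190 of the 225 genes. Among them 32 clones of 28 genes were higher and 9 clones of 9 genes were lower in PACAP -/- glands (limma, Benjamini-Hochberg adjusted p below 0.05 over all 28666 tested clones), and no gene had clones that passed in both directions. The share higher was 10.4% of the solute carrier clones, against 6.67% of all tested clones, and the share lower was 2.91%, against 4.56%. In either direction 13.3% passed, against 11.2% on the whole array. The median ratio of the solute carrier clones was 0.05 and that of all clones was -0.0015. Above 0 lay 58.6% of solute carrier clones, against 49.7% of all clones. The 41 calls had adjusted p between 0.0248 and 0.04998, and none kept its call when array 2, 3, 4 or 6 was left out. In these fits 1, 1, 19 and 1 of all tested clones passed, of 28264, 27382, 27869 and 27387. Without arrays 2 and 4 together the 41 clones kept their sign, none passed (lowest adjusted p of any solute carrier clone 0.0908), and 45 clones higher and 13 lower had an unadjusted p below 0.05. Of all clones on the array 0.252% passed without them, 0.242% higher and 0.0102% lower.

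**Figure D1:**
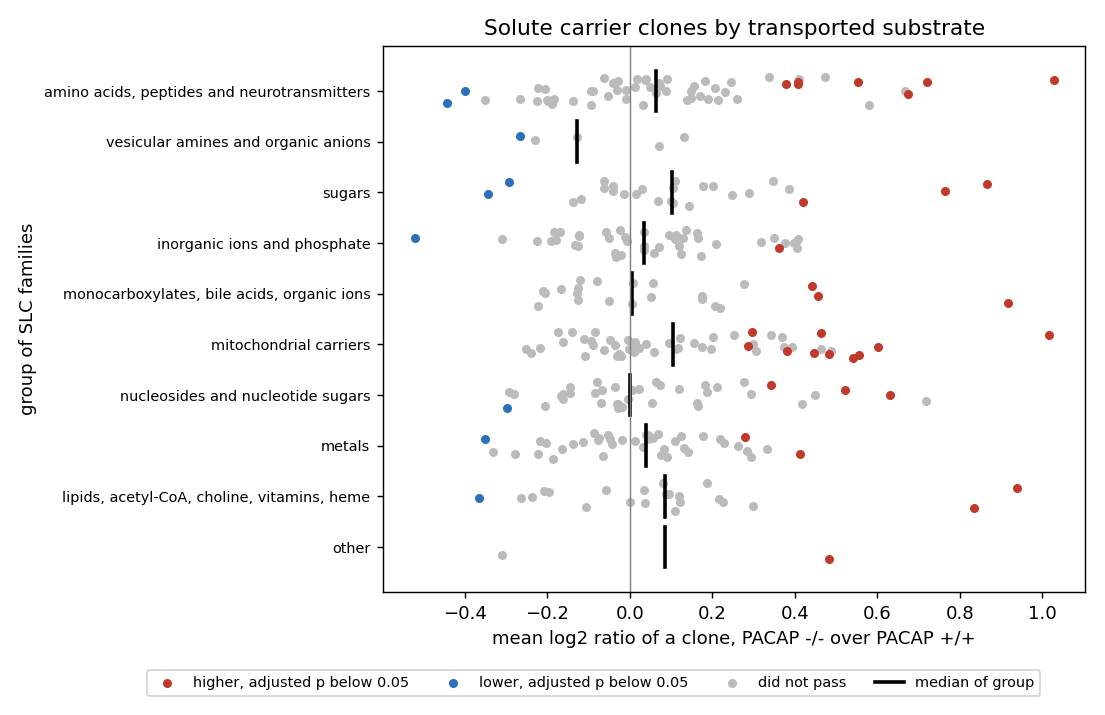
Mean log2 ratio, PACAP -/- over PACAP +/+, of the 309 tested solute carrier clones (1 point per clone) in the groups of families by transported solute. Coloured points are the 32 clones past the threshold as higher and the 9 as lower; with print-tip loess, shown here, 10 of the higher points are mitochondrial carriers, a group with no lower point, against 14 higher and 4 lower with global loess.

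Mitochondrial carriers, family 25, made up the group with the most calls. Of its 32 tested genes 9 were higher and none lower. Of its 52 tested clones 10 (19.2%) were higher, against 6.67% of all tested clones, with a median ratio of 0.10. With global loess 14 of these clones were higher and 4 lower, where 16.2% of all clones were higher and 14.2% lower. The group counts below stand beside these shares and the 4.56% of all clones lower with print-tip loess. No share over all genes was computed, and a gene with several clones has more chances of a call. No difference between groups was tested. These proteins exchange metabolites across the inner mitochondrial membrane. Slc25a17, counted in the family, sits in peroxisomes.

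Slc25a3, which brings phosphate into mitochondria for ATP synthesis, was the leading member. Its clone 1 had green (knockout) signals of 5402, 4353, 7349, 5785, 2016 and 3848 on arrays 1 to 6, against red (wild-type) signals of 3933, 603, 1833, 321, 616 and 1070. The normalized ratios of this clone were 0.27, 1.74, 0.53, 2.51, 0.63 and 0.41, with a mean of 1.02 ± 0.27 (SE), 2.02-fold (adjusted p = 0.0413). All arrays lay above 0, array 4 highest and array 2 next, the arrays on which the red signal was weakest. Its other clones did not pass, at 0.49, -0.04 and 0.20, though with global loess clone 2 was higher, at 0.51 (adjusted p = 0.0432).

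Slc25a1, which exports citrate, the source of cytosolic acetyl-CoA for fatty acid and cholesterol synthesis, had both of its clones higher. Clone 1 had ratios of 0.05, 1.10, 0.50, 1.17, 0.33 and 0.45, with a mean of 0.60 ± 0.14 (adjusted p = 0.0354). Clone 2 had ratios of 0.14, 1.30, 0.44, 0.58, 0.44 and 0.35, with a mean of 0.54 ± 0.13 (adjusted p = 0.0366). Array 1 was lowest and arrays 2 and 4 were highest for both clones. With global loess clone 1 was at 0.28 and did not pass (adjusted p = 0.174), and clone 2 was at 0.65.

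The ADP/ATP carriers, which trade cytosolic ADP for mitochondrial ATP, were higher in 2 genes. The single clone of Slc25a5 had ratios of 0.11, 0.95, 0.30, 0.92, 0.34 and 0.73, with a mean of 0.56 ± 0.12 (adjusted p = 0.0312). Clone 2 of its close paralog Slc25a4 was at 0.45 ± 0.10 (adjusted p = 0.0319), with array 5 at -0.06 and the others between 0.46 and 0.65. Clone 1 of Slc25a4 was at 0.46 ± 0.13 (adjusted p = 0.0506), and with global loess at -0.12. A cDNA of one paralog can bind RNA of the other, and the extent was not measured here.

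The other calls of the family were smaller. Slc25a39, needed for glutathione import into mitochondria, was at 0.48 in 1 of 4 tested clones. Slc25a17 clone 1 was at 0.46, but most other named clones of its sequence cluster are annotated as Cramp1l, so its identity is uncertain. Slc25a44, a carrier of branched-chain amino acids, was at 0.38 in clone 2, whose title in the scanner files is that of another gene, defender against cell death 1. Slc25a23, an ATP-Mg/phosphate carrier, was at 0.30 with arrays between 0.25 and 0.41, the narrowest spread of the family's calls. Slc25a36, a pyrimidine nucleotide carrier, was at 0.29 in 1 of 4 tested clones. With global loess these clones of Slc25a39 (0.11) and Slc25a36 (0.11) did not pass, while Slc25a39 clones 3 (0.54) and 4 (0.46) were higher and Slc25a36 clone 2 (-0.34) was lower.

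Promoter sequence was read for these genes because PACAP receptors raise cyclic AMP, and CREB, a factor switched on by cyclic AMP, binds the element TGACGTCA or the shorter core TGACG. Of the 225 genes 177 had a promoter in the RefSeq table (GRCm38.p6, 250 bases before to 50 after a gene start). On either strand, the core stood in 58 of these genes (32.8%), against 23.0% of the table's 27025 genes, and the full element, which contains the core, in 2 (1.13%), against 2.03%. Among 22 matched genes of the 28 that were higher, 8 (36.4%) held a core and 1, Slc25a36, the full element. Among 7 matched genes of the 9 that were lower, 2 held a core, Slc15a2 and Slc35e1. The letters TCAAGGTCA, bound by the steroidogenic factor SF-1, and TGATGNAAT, bound by ATF4 in the amino acid response, were in none of the 177. Both are rare, in 0.466% and 1.08% of the table's 27025 genes, so their absence from 177 genes says little. A match is a description of letters, not a measured site. The promoters of 3 called mitochondrial carriers that hold a core are printed in their direction of transcription, with cores on either strand in capitals: Slc25a3 (chr10:91123918-91124217, minus strand, 4 cores), Slc25a1 (chr16:17928170-17928469, minus strand, 1 core) and Slc25a36 (chr9:97110992-97111291, minus strand), where the capitals spell the full element.
Slc25a3: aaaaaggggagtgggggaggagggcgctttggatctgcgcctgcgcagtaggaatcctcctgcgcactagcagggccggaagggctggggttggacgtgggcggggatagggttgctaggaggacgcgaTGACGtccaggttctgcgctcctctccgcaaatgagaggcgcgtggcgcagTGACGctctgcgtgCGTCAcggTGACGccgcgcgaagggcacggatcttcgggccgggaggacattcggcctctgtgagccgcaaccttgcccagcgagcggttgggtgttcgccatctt
Slc25a1: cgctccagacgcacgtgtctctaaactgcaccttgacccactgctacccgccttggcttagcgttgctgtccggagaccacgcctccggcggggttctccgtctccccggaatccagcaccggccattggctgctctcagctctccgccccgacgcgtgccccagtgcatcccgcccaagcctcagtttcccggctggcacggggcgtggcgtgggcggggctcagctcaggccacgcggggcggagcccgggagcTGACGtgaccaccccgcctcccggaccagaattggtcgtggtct
Slc25a36: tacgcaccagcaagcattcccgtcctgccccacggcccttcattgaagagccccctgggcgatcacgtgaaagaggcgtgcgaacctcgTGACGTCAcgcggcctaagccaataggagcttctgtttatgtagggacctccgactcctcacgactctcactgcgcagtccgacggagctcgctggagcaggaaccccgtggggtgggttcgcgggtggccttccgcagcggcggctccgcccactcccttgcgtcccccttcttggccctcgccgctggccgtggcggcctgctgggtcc

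Amino acid carriers gave 6 higher and 2 lower genes of 34 tested, with 7 higher (12.3%) and 2 lower (3.51%) of 57 clones. With global loess 13 clones were higher and 8 lower. Slc7a6, the light chain of an exchanger of cationic and neutral amino acids that works only joined to the heavy chain Slc3a2, had the largest higher ratio of all solute carriers. Its single tested clone had green (knockout) signals of 3327, 4417, 3315, 3888, 2710 and 2725, against red (wild-type) signals of 2042, 512, 965, 294, 1109 and 295. The normalized ratios were 0.52, 2.02, 0.86, 2.22, 0.19 and 0.35, with a mean of 1.03 ± 0.26, 2.04-fold (adjusted p = 0.0389). The knockout signal was above the wild-type signal on every array, and arrays 2 and 4 gave the high ratios. Without these 2 arrays the mean was 0.48. The heavy chain Slc3a2 did not pass in either clone, at 0.41 ± 0.14 (adjusted p = 0.0751) and 0.58 ± 0.17 (adjusted p = 0.0522). With global loess both clones were higher, at 0.57 (adjusted p = 0.0319) and 0.90 (adjusted p = 0.00452). Slc7a5, another light chain, was at 0.16 ± 0.13 (n = 5, adjusted p = 0.433).

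The sodium-coupled neutral amino acid transporter Slc38a2, induced in many cells by amino acid shortage, was higher in both clones. Clone 2 had ratios of 0.35, 1.47, 0.45, 0.97, 0.39 and 0.70, with a mean of 0.72 ± 0.14 (adjusted p = 0.0280). Clone 1 was at 0.55 ± 0.10 (adjusted p = 0.0248), with arrays between 0.26 and 0.94. Both clones lay above 0 on every array, but clone 1 was at 0.01 with global loess. Its relative Slc38a1 passed in 1 of 5 tested clones, at 0.41, while the other 4 lay between -0.22 and 0.15, of which clone 3 was lower with global loess, at -0.37 (adjusted p = 0.0426).

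Slc6a6, which takes up taurine, had ratios of 0.01, 1.19, 0.53, 1.24, 0.54 and 0.55 in clone 1, with a mean of 0.67 ± 0.15 (adjusted p = 0.0316). Its other clones were at 0.15 and 0.24 and did not pass. Slc7a1, a carrier of cationic amino acids such as arginine, was higher at 0.41 in clone 2 and at 0.01 in clone 1, which did not pass. Slc6a7, a proline transporter, was higher at 0.38, but was at -0.07 with global loess.

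The creatine transporter Slc6a8 gave the largest fall of the group, in its brightest clone. Clone 1 had ratios of -0.40, -0.59, -0.22, -0.41, -0.43 and -0.61, with a mean of -0.44 ± 0.08, 1.36-fold lower in PACAP -/- glands (adjusted p = 0.0248). Every array lay below 0, yet clones 2 and 3 were at 0.26 and 0.18 and did not pass, and with global loess clone 1 was at 0.20 (adjusted p = 0.301) and clone 3 was higher, at 0.70 (adjusted p = 0.0025). The direction of Slc6a8 is thus unsettled. Slc15a2, a proton-coupled carrier of small peptides, was lower in clone 1 at -0.40 ± 0.09 (adjusted p = 0.0310). Its arrays read -0.14, -0.55, -0.61, -0.51, -0.38 and -0.22, all below 0, and with global loess it was also lower, at -0.43. Its clone 2 was at -0.05 and did not pass.

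**Figure D2:**
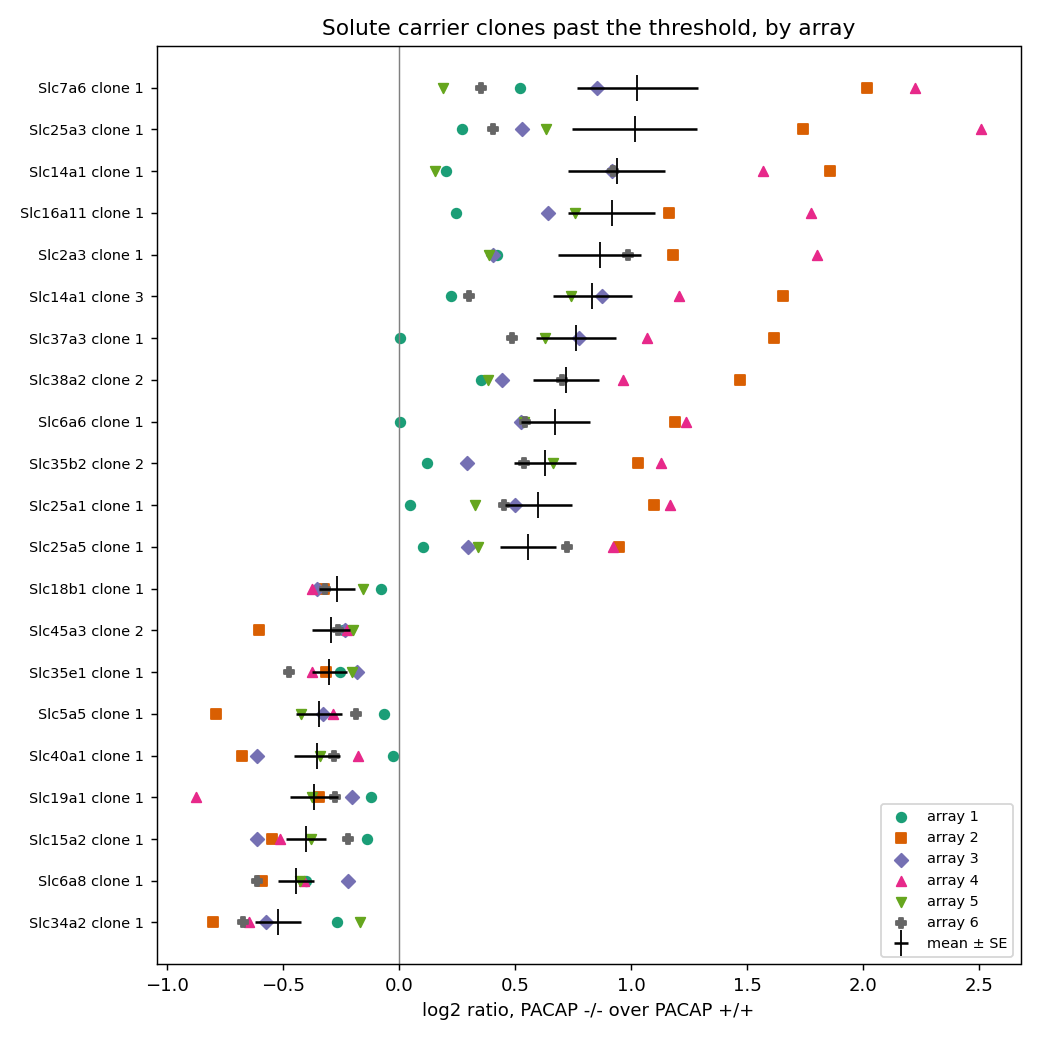
Log2 ratios, PACAP -/- over PACAP +/+, of the solute carrier clones past the threshold, with 1 point for each array. Arrays 2 and 4 give the right-hand points of most higher clones, such as 2.02 and 2.22 for Slc7a6, and no lower clone has a point above 0.

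Of the carriers for the transmitters of the medulla, the noradrenaline transporter Slc6a2 had 1 clone, which passed the quality filter on 2 arrays and was not tested. The vesicular transporters Slc18a2 and Slc18a3 had no clone here. In the group of vesicular amine and organic anion carriers, 1 of 4 tested genes (1 of 5 clones) was lower and none higher. That gene was Slc18b1, a vesicular polyamine transporter, with ratios of -0.08, -0.32, -0.35, -0.37, -0.16 and -0.32. All lay below 0, with a mean of -0.27 ± 0.08 (adjusted p = 0.0499).

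The sugar group had 3 higher and 2 lower genes of 17 tested. Of its 26 clones 3 (11.5%) were higher and 2 (7.69%) lower, and with global loess 5 were higher and 2 lower. Slc2a3, the high-affinity glucose transporter GLUT3, had ratios of 0.42, 1.18, 0.41, 1.80, 0.39 and 0.99 in clone 1, with a mean of 0.87 ± 0.18, 1.82-fold (adjusted p = 0.0290). Every array lay above 0, array 4 highest. Clone 2, whose red signal was below the local background level on 4 arrays, was at 0.02 (n = 5) and did not pass. Slc2a1, the glucose transporter GLUT1 found in most tissues, was higher at 0.42 ± 0.10 in clone 1 (adjusted p = 0.0326) with arrays between 0.17 and 0.77, and its dimmer clone 2 was at 0.29 (adjusted p = 0.115). With global loess clone 2 was higher too, at 0.60 (adjusted p = 0.0121). Slc37a3, of the sugar-phosphate exchanger family, was the brightest called clone, with ratios of 0.01, 1.62, 0.78, 1.07, 0.63 and 0.49 and a mean of 0.76 ± 0.17 (adjusted p = 0.0317). Its ratio was near 0 on array 1, the array with the strongest red signal, and highest on array 2. Its dimmer clone 2 was at -0.14 ± 0.11 and did not pass (adjusted p = 0.391).

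The lower members of the sugar families are not both known for sugars. Slc5a5, the sodium/iodide symporter of the thyroid, had ratios of -0.06, -0.79, -0.33, -0.29, -0.42 and -0.18, with a mean of -0.34 ± 0.10 (adjusted p = 0.04998). Slc45a3, a prostate-enriched member of the family of proton-coupled sucrose transporters, was lower in clone 2, with ratios of -0.24, -0.60, -0.23, -0.23, -0.20 and -0.26 and a mean of -0.29 ± 0.08 (adjusted p = 0.0457). Both lay below 0 on every array, with array 2 lowest. With global loess Slc5a5 did not pass, at -0.31 (adjusted p = 0.144).

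The group of monocarboxylate, bile acid and organic ion carriers had 2 higher genes of 16 tested and none lower. Of its 22 clones 3 (13.6%) were higher, and with global loess 5 were higher and 1 lower. Slc16a11, of the monocarboxylate transporter family, passed in 2 of 3 tested clones. Clone 1 had ratios of 0.25, 1.16, 0.64, 1.78 and 0.76 on arrays 1 to 5 and no value on array 6, with a mean of 0.92 ± 0.19 (n = 5, adjusted p = 0.0305). Clone 2 was at 0.44 ± 0.09 (adjusted p = 0.0281) with arrays between 0.13 and 0.70, and clone 3 was at -0.08. With global loess clone 3 had the opposite sign and was higher, at 0.45 (adjusted p = 0.0188). Both higher clones lay above 0 on every array measured. Slc22a4, a carrier of ergothioneine, was higher at 0.46, with red signal below the local background level on 4 arrays. The lactate and pyruvate transporter Slc16a1 was not tested.

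The urea transporter Slc14a1, known as the Kidd blood group antigen of red cells, was higher in 2 of 3 clones. Clone 1 had ratios of 0.20, 1.86, 0.92, 1.57, 0.16 and 0.92, with a mean of 0.94 ± 0.21, 1.92-fold (adjusted p = 0.0318). Clone 3 had ratios of 0.23, 1.66, 0.88, 1.21, 0.74 and 0.30, with a mean of 0.83 ± 0.17, 1.78-fold (adjusted p = 0.0287). The clones were alike in size, both highest on array 2 and above 0 on every array. Clone 2, with a signal between theirs, was at 0.09 ± 0.08 and did not pass. The erythroid marker clones on the array numbered 2, and neither passed.

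Vitamin and lipid carriers, grouped with the urea transporter, gave 1 lower gene. Slc19a1, the reduced folate carrier, had ratios of -0.12, -0.34, -0.20, -0.87, -0.37 and -0.28, with a mean of -0.36 ± 0.10 (adjusted p = 0.0475). All lay below 0, array 4 far below the rest, and with global loess the clone did not pass, at -0.32 (adjusted p = 0.0932). In the whole group 1 gene of 12 was higher and 1 lower (9.09% and 4.55% of 22 clones). With global loess 4 clones were higher and 1 lower.

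Nucleotide sugar and nucleoside carriers gave 3 higher genes and 1 lower gene of 25 tested. Of their 38 clones 3 (7.89%) were higher and 1 (2.63%) lower, and with global loess 7 were higher and 3 lower. Slc35b2, which brings the sulfate donor PAPS into the Golgi apparatus, had ratios of 0.12, 1.03, 0.29, 1.13, 0.66 and 0.54 in clone 2, with a mean of 0.63 ± 0.13 (adjusted p = 0.0293). Every array lay above 0, and with global loess the ratio of clone 2 was 1.15. Clone 1 was at 0.72 and did not pass. Slc35e4, whose substrate is not known, was higher at 0.52, and Slc35b1, an ATP/ADP exchanger of the endoplasmic reticulum, was higher at 0.34 in 1 of 3 tested clones. With global loess neither passed, at 0.37 (adjusted p = 0.08) and 0.32 (adjusted p = 0.0665), and clone 1 of Slc35b1, at -0.07 with print-tip loess, was lower at -0.66 (adjusted p = 0.00461). Slc35e1, whose substrate is not known, was lower in clone 1, with ratios of -0.25, -0.31, -0.18, -0.37, -0.20 and -0.47 and a mean of -0.30 ± 0.07 (adjusted p = 0.0378). With global loess the same clone was higher, at 0.38 (adjusted p = 0.0363), so its direction rests on the normalization.

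Metal carriers gave 2 higher genes and 1 lower gene of 21 tested. With print-tip loess 2 (4.88%) of the 41 clones of the group were higher and 1 (2.44%) lower. With global loess 5 were higher and 7 lower. Slc31a1, the copper importer CTR1, was higher at 0.41 in clone 1, and Slc39a10, a zinc importer, was higher at 0.28 in clone 1 with arrays between 0.21 and 0.43, but did not pass with global loess, at 0.22 (adjusted p = 0.165). Slc40a1, ferroportin, the exporter of iron from cells, had ratios of -0.02, -0.68, -0.61, -0.18, -0.34 and -0.28, with a mean of -0.35 ± 0.10 (adjusted p = 0.0482). All arrays lay below 0, array 1 closest to it, and with global loess the ratio was -0.24 and did not pass (adjusted p = 0.21). The zinc transporter Slc30a5 had the smallest p of its family at -0.28 ± 0.08 (adjusted p = 0.0549). It was lower with global loess, at -0.85 (adjusted p = 0.00163), with arrays centred on their medians, at -1.19, and with print blocks so centred, at -0.56.

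Carriers of inorganic ions and phosphate had 1 higher and 1 lower gene of 27 tested, with 1 of 44 clones (2.27%) in each direction. With global loess 7 clones were higher and 5 lower. Slc34a2, the sodium-phosphate cotransporter of epithelia such as lung and gut, gave the largest fall of all solute carriers. Its clone 1 had ratios of -0.27, -0.80, -0.57, -0.65, -0.17 and -0.67, with a mean of -0.52 ± 0.10, 1.43-fold lower in PACAP -/- glands (adjusted p = 0.0258). Every array lay below 0, and with global loess it was lower too, at -0.86. Clone 2 was at -0.17 (n = 4) and did not pass. The higher gene was Slc4a1ap, the non-carrier named above, at 0.36 in clone 2. With global loess this clone did not pass, at 0.38 (adjusted p = 0.0612), and clone 1 was lower, at -0.47 (adjusted p = 0.0241). The sodium-potassium-chloride cotransporter Slc12a2 did not pass in any of its 3 clones, at -0.12, 0.40 and 0.10. With global loess clone 2 was higher, at 0.60 (adjusted p = 0.0445), and with arrays centred on their medians, at 0.80. In the sodium/proton exchanger family, Slc9a5 clone 2 had the smallest p, at -0.13 ± 0.08 (adjusted p = 0.276). Outside these groups stood 2 tested genes, with 1 clone each. Slc66a1, an exporter of cationic amino acids from lysosomes, was higher at 0.48, and with global loess did not pass, at 0.39 (adjusted p = 0.06). Slc66a2 was at -0.31 and did not pass, and with global loess it was lower.

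Clones of 1 gene often disagreed. Of 81 genes with at least 2 tested clones, 40 (49.4%) had all clones on one side of 0, against 47.5% of the 4875 such genes on the array. Of 29 genes with at least 3 tested clones, 7 (24.1%) had one sign throughout, against 32.8% of 1958, namely Slc14a1, Slc31a1, Slc35f6, Slc39a13, Slc45a4, Slc6a6 and Slc6a9. Only Slc14a1, Slc16a11, Slc25a1 and Slc38a2 had 2 clones past the threshold. Among these 29 genes the widest gap between clones was 1.05, in Slc25a3, and the narrowest 0.02, in Slc35f6, whose clones were at -0.14, -0.16 and -0.17. Slc6a9, a glycine transporter, had its brightest clone at 0.67 ± 0.33 with arrays from -0.79 to 2.25 and did not pass (adjusted p = 0.186), and its other clones were at 0.05 and 0.07. With global loess the brightest clone was higher, at 1.66 (adjusted p = 0.00119), and clone 3 lower, at -0.42 (adjusted p = 0.0474). Slc45a4 had 4 clones between 0.10 and 0.39, the nearest to a call, clone 3, at adjusted p = 0.0506, and with global loess that clone was higher, at 0.55 (adjusted p = 0.0061). Slc39a13 had 3 clones between 0.18 and 0.33, none of which passed, and with global loess all 3 were higher, between 0.57 and 0.88. Slc4a4, a sodium bicarbonate cotransporter, spanned -0.31 to 0.41 and passed in neither direction, but with global loess clone 1 was higher, at 0.68 (adjusted p = 0.0246). In Slc11a2, Slc27a4, Slc30a3, Slc30a9, Slc38a10, Slc39a3, Slc43a2, Slc44a1 and Slc4a2, which each had clones of both signs, none passed. With global loess Slc30a3 clone 1 was lower (-0.64) and Slc4a2 clone 3 higher (0.35).

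**Figure D3:**
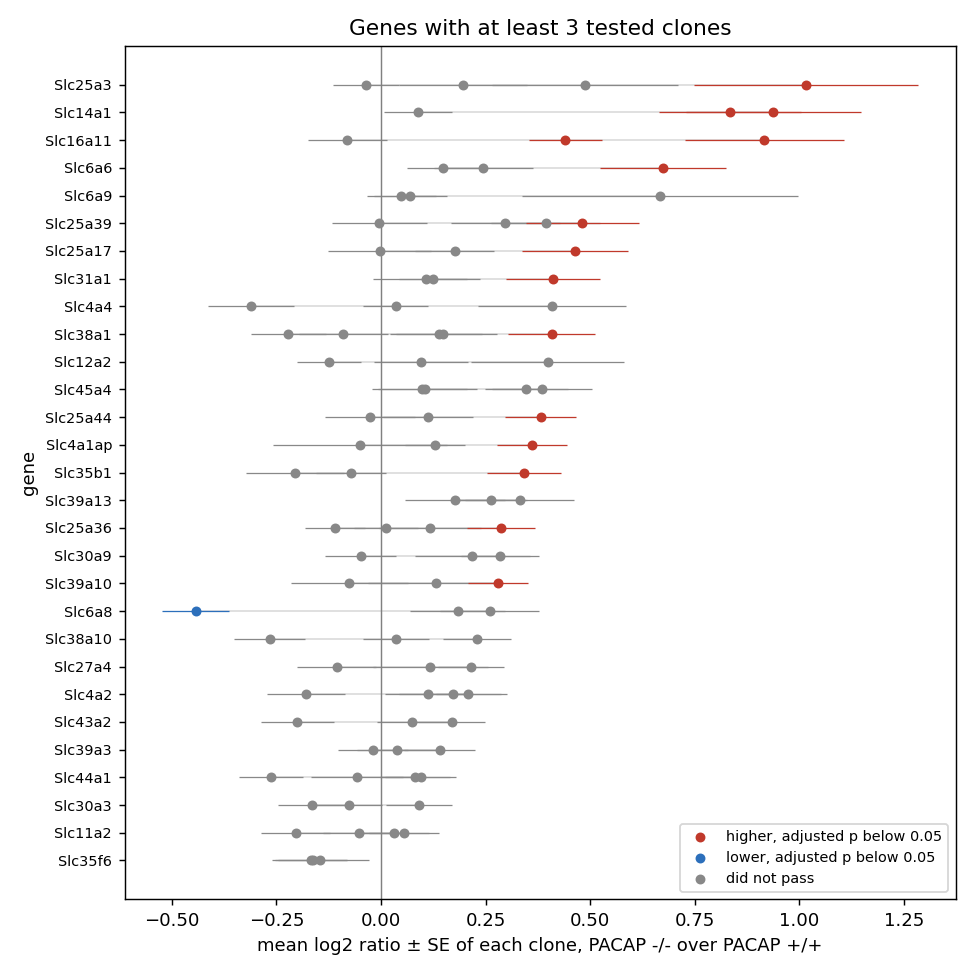
Mean log2 ratio with SE of each tested clone for the 29 solute carrier genes with at least 3 tested clones. The Slc14a1 clones lie at 0.94, 0.09 and 0.83 and the Slc25a3 clones between -0.04 and 1.02, while the Slc35f6 clones lie within 0.02 of each other.

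The calls leaned on arrays 2 and 4. Among the 32 higher clones 26 (81.2%) had their highest ratio on array 2 or 4, close to the 78.6% of all higher clones on the array, and 6 of the 9 lower clones had their lowest ratio there. The higher clones had medians of 0.22, 0.90, 0.42, 0.81, 0.34 and 0.41 on arrays 1 to 6. The lower clones had medians of -0.14, -0.59, -0.33, -0.37, -0.34 and -0.28. Over all tested solute carrier clones the medians were near 0, between 0.01 and 0.08. The 2 arrays with the largest ratios of called clones were those with the weakest red signal, and its part in the result was not tested. Of the called clones, chosen for their ratios on these same arrays, 27 higher ones lay above 0 on every array measured, and the 9 lower ones lay below 0 on every array.

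**Figure D4:**
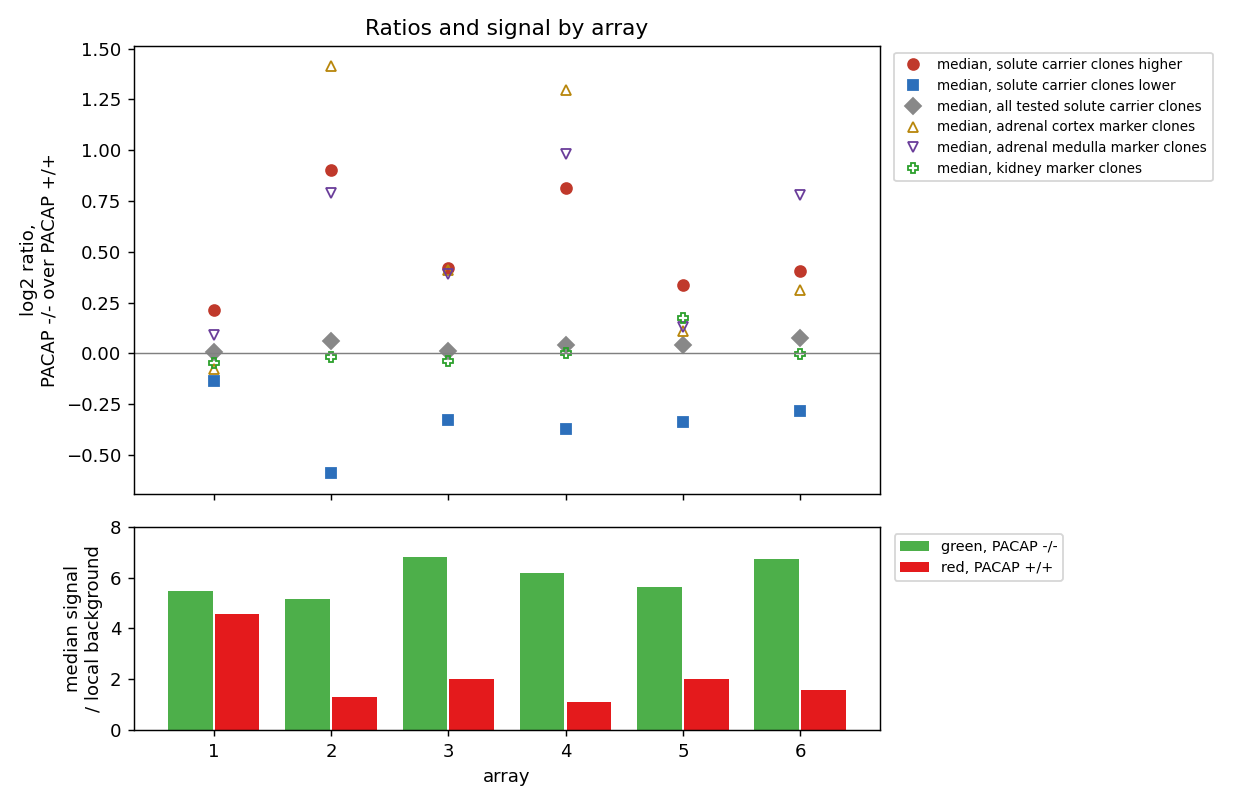
Upper panel, median log2 ratio, PACAP -/- over PACAP +/+, on each array of the called and of all tested solute carrier clones and of the cortex, medulla and kidney marker clones; lower panel, median green (PACAP -/-) and red (PACAP +/+) signal divided by the local background. The medians of the higher clones peak on arrays 2 and 4 (0.90 and 0.81), where the red signal left after background removal is 1.32 and 1.11 times the background.

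With global loess 60 solute carrier clones were higher and 33 lower (30.1% in either direction, against 30.4% of all clones, of which 16.2% higher and 14.2% lower). Of those solute carrier calls 64.5% were higher, against 78.0% with print-tip loess. Of the calls over all clones 53.2% were higher with global loess and 59.4% with print-tip loess. Of the 41 calls 26 passed with both normalizations in the same direction, 22 higher and 4 lower. The 4 lower ones were Slc34a2, Slc15a2, Slc45a3 and Slc18b1. Slc6a8 clone 1, Slc35e1 clone 1 and Slc6a7 clone 1 had the opposite sign. Among the clones that kept their call were both of Slc16a11, the 2 of Slc14a1, and those of Slc7a6, Slc25a3, Slc2a3, Slc2a1, Slc37a3, Slc35b2, Slc25a5 and Slc6a6. With print-tip loess and a variance trend in limma, Slc7a6, Slc25a3 clone 1 and Slc14a1 clone 1 did not pass (adjusted p = 0.0933, 0.103 and 0.0651).

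**Figure D5:**
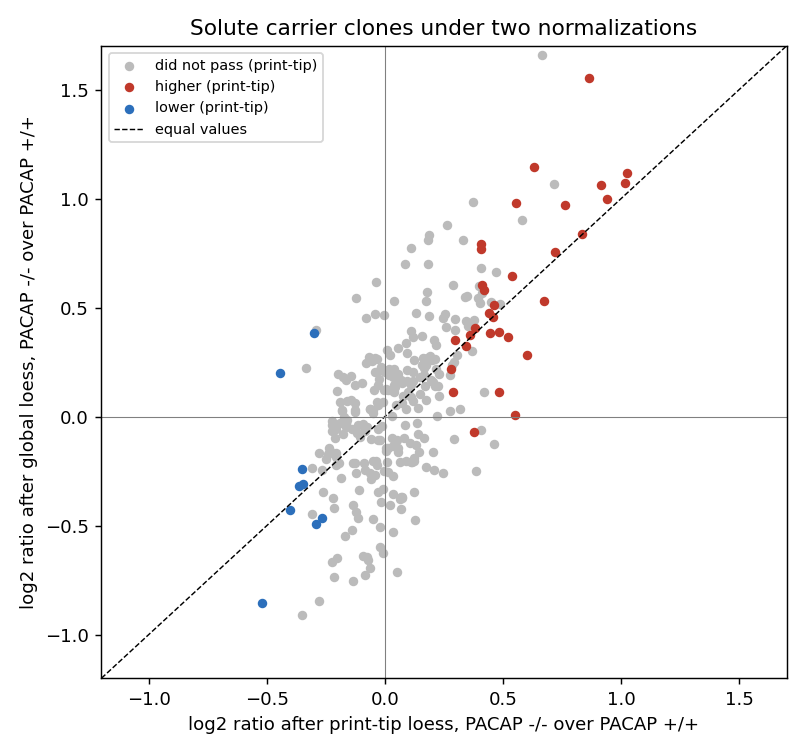
Mean log2 ratio of each tested solute carrier clone with print-tip loess against that with global loess, coloured by the call with print-tip loess. Of the 41 called clones 38 keep their sign and 3 do not, among them Slc35e1 at -0.30 and 0.38.

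Other genes of membrane transport, none of them solute carriers, were counted from fixed lists. The ATP-driven ABC transporters had 6 of 41 clones higher and none lower, with a list median of 0.03. The 6 were of Abcb1a (0.83), Abcb1b (0.67, n = 5), Abcb8 (0.50), Abcc8 (0.98, n = 5) and Abcd3 (0.89 and 0.93). Other clones of Abcb8 (0.10 and 0.11), Abcc8 (0.05) and Abcd3 (-0.06) did not pass. With global loess these Abcb8 clones were higher (0.40) and lower (-0.41), and this Abcd3 clone was lower (-0.63). With global loess 9 were higher and 7 lower, with a median of -0.02. Abcb1a and Abcb1b encode drug efflux pumps and Abcd3 a peroxisomal fatty acid transporter. None of the 9 clones of the Na,K-ATPase, which builds the sodium gradient many carriers use, passed in either direction (median 0.03), and with global loess 1 clone of Atp1b1 was higher, at 0.60 (adjusted p = 0.00409). The organic anion transporters of the Slco family had 2 of 9 clones lower, Slco2b1 (-0.32) and Slco3a1 (-0.31), and none higher. Among partners of carriers 4 of 15 clones were higher, 2 of 8 clones of Bsg, the chaperone of monocarboxylate transporters, and both clones of Vdac2, a channel of the outer mitochondrial membrane, and the list median was 0.24. Of 2 aquaporin clones Aqp6 was higher (0.43). With global loess the partners had 8 clones higher and the Slco family 3 lower, but not all the same clones. The called Bsg clones did not pass, at 0.27 (adjusted p = 0.127) and 0.08 (adjusted p = 0.653), while other Bsg clones did. The called Slco2b1 clone did not pass, at -0.23 (adjusted p = 0.136), nor did Aqp6. Both clones of Vdac2 and the clone of Slco3a1 kept their calls. These counts stand beside 6.67% of all clones higher and 4.56% lower, and with global loess 16.2% higher and 14.2% lower.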

How the data were processed

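Per the series' design text and the file headers, the authors scanned 6 two-colour spotted cDNA arrays, and the deposited red and green intensity columns had the local background removed already: on the 768 empty positions the median was 1.0 in either channel. The deposited quality score of a ratio was required to exceed 0.3. The calibrated ratio, as deposited, is the quotient of red and green scaled by a number particular to each array (0.220 to 0.783). In the authors' value table the log2 ratios have red as numerator. Its rows were linked to spots by recomputing these values within 0.002 on the log2 scale, with background subtracted a second time, which linked 99.8% of 35873 rows and gave each clone its gene annotation. Red was wild type and green knockout, per the labels.

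Log2 ratios of knockout over wild type were computed from the deposited intensities, with values under 1 raised to 1. Print-tip loess, limma's lmFit and eBayes against 0 (limma 3.58.1, R 4.3.3) and Benjamini-Hochberg adjustment over all clones with values on at least 4 arrays followed, at a threshold of 0.05, after averaging spots of a clone. Print-tip loess was the choice because the block differences under global loess were known. The number of arrays limits the precision. The steps were tested on simulated data. Named were the 12 largest higher and 12 largest lower clones with one sign on every array (9 lower existed), with the other called clones by symbol and value, genes with at least 3 tested clones, the smallest p of each family with at least 5 tested genes, and genes fixed by role or paralogy. The members, gene lists and choices were made with earlier results of these data known. Not tested were 84 clones, including every clone of 35 genes. Of 47 solute carrier clones whose sequence cluster held other named clones, 8 had another gene in the majority. The alternatives were other normalizations, background correction, filters, the value table, a moderated variance with a trend, and leaving out arrays.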

Additional observations from a re-analysis of the deposited data

Results flagged for a closer look

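In 3 of 51 named clones 1 array lay far from the other 5 by Dixon's test of the gap over the range, and chance alone marks about 1 in 20. Slc19a1 clone 1 was at -0.87 on array 4, and Slc45a3 clone 2 was at -0.60 on array 2, both below the other arrays of clones that were lower throughout. Slc25a4 clone 2 was at -0.06 on array 5, below its other arrays, in a clone that was higher in PACAP -/- glands.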

How the results depend on the processing

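Of the solute carrier clones, 32 were higher and 9 lower, with a median ratio of 0.05. Global loess gave 60 higher, 33 lower and a median of 0.08. Centring each array on its median gave 66, 31 and 0.11, and centring each print block gave 48, 14 and 0.09. Over all 28666 tested clones these centrings gave 4753 higher and 4666 lower, and 2924 higher and 2620 lower. No solute carrier clone passed in limma without the quality filter, with the value table or without arrays 2 and 4, so 0 in both directions. At an unadjusted p below 0.05 these fits had 64, 66 and 45 higher and 38, 40 and 13 lower, in that order. Of all clones on the array 0 of 35970 passed without the quality filter, and 90 of 28522, all higher, with the value table. Without arrays 2 and 4, 71 of 29342 were higher and 3 lower. Leaving out 1 array gave 0 to 38 higher, 0 to 10 lower and a median of 0.04 to 0.06. The 0 counts came without array 2, 3, 4 or 6, with 62, 67, 60 and 70 higher and 27, 26, 23 and 31 lower at an unadjusted p below 0.05. Of all clones on the array 1, 1, 19 and 1 passed in these fits, all as higher. The value table moved the median of solute carrier clones to 0.48 and of all clones to 0.24. The normexp background correction, a quality score above 0.5, both channels above background, values on all 6 arrays and a moderated variance with a trend gave counts within 1.5 times. These settings did not all keep the same calls. With both channels above background 28 called clones passed and 9 did not, such as Slc5a5 (-0.19, limma adjusted p = 0.15). Slc22a4, Slc25a4 clone 2, Slc38a1 clone 5 and Slc7a1 clone 2 were not tested there. Normexp kept 40 calls, quality above 0.5 kept 35, values on all 6 arrays 40 and the trend 32. Red signal was above background on every array for 18 of the 32 higher and 5 of the 9 lower clones. The cause of each change was not tested.

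The share of calls that were higher was 78.0%, and 64.5% with global loess and 68.0% with median centring of arrays. Over all clones these shares were 59.4%, 53.2% and 50.5%. Signs turned with global loess for Slc6a8 clone 1 (0.20), Slc35e1 clone 1 (0.38), Slc9a5 clone 2 (0.06), Slc25a4 clone 1 (-0.12) and Slc6a7 clone 1 (-0.07). They turned with median centring of arrays for Slc35e1 (0.21), Slc9a5 clone 2 (0.19), Slc25a4 clone 1 (-0.24) and Slc6a7 (-0.06). They turned with the value table for Slc14a1 clone 1 (-0.05), Slc37a3 (-0.21), Slc6a6 (-0.38), Slc4a1ap (-0.52), Slc25a4 clone 1 (-0.74), Slc25a23 (-0.03), Slc35e4 (-0.20), Slc15a2 (0.66), Slc19a1 (0.37), Slc40a1 (1.54), Slc5a5 (0.46), Slc45a3 (0.36) and Slc9a5 clone 2 (2.07). Slc12a2 clone 3 was at -0.03 with both channels above background, at -0.06 without arrays 2 and 4 and at -0.01 without array 4. Leaving out single arrays moved Slc12a2 clone 3 between -0.01 and 0.18. No called clone turned sign when an array was left out. Each array pairs 1 knockout with 1 wild-type RNA, so the test of ratios against 0 is itself the paired test.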
